A study of Mus musculus with 8 samples.

Results

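A set of 10 genes of class II antigen presentation was followed through RNA-seq libraries of alveolar macrophages, the macrophages of the lung's air spaces, with and without Tfam. The genes were taken by symbol from the 12367 rows of the deposited table, and all 10 had a row and passed the filter on low values. They are the surface chain genes H2-Aa (ENSMUSG00000036594), H2-Ab1 (ENSMUSG00000073421) and H2-Eb1 (ENSMUSG00000060586), the invariant chain gene Cd74 (ENSMUSG00000024610), the loading genes H2-DMa (ENSMUSG00000037649), H2-DMb1 (ENSMUSG00000079547) and H2-DMb2 (ENSMUSG00000037548), the regulator Ciita (ENSMUSG00000022504), and the costimulatory ligand genes Cd86 (ENSMUSG00000022901) and Cd80 (ENSMUSG00000075122). The experimental mice carried floxed Tfam alleles and a Cre recombinase driven by CD11c (KO), and the control mice carried the floxed alleles alone (WT). All were untreated and 3 weeks old. Each genotype had 4 libraries, and each library held polyadenylated RNA from a pool of CD45+ F4/80+ CD11c+ cells, sorted by flow from the lungs of 3 to 5 male and/or female mice. A Cre control lacking floxed Tfam was not part of the design, so an effect of the Cre and one of Tfam loss cannot be told apart. CD11c-driven Cre is also active in dendritic cells.

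Class II molecules are pairs of an alpha and a beta chain that hold peptides from endocytosed proteins at the cell surface and show them to CD4+ T cells. In the endoplasmic reticulum the new pairs are bound by the invariant chain, which is later cut by proteases in endosomes. The H2-DM heterodimer, an alpha chain paired with a beta chain, then exchanges the remaining fragment for antigenic peptides. Transcription of these genes depends on CIITA, a coactivator without DNA binding of its own, which docks on factors bound to the X and Y boxes of class II promoters. A T cell also needs a costimulatory signal, which CD80 and CD86 give through CD28. Mouse alveolar macrophages are known for low class II levels at rest when set beside lung dendritic cells.

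Promoters of the surface and loading genes are shown because the X and Y boxes are the sites through which CIITA acts on genes of this pathway. RefSeq promoter entries on build GRCm38.p6, each running from 250 bases before to 50 bases after an annotated start, were present for 6 of the 10 genes: H2-Aa, H2-Eb1, H2-DMa with 2 starts, H2-DMb1, H2-DMb2 and Cd80. The motifs searched, on both strands, were chosen with the sequences in view: TGATTGG as the core of the Y box, AACNGATG as the core of the X box, and the palindrome TGACGTCA bound by CREB-type factors. The windows below give 130 bases before to 10 after the start on the strand of the gene, 5′ to 3′, with the matches in capitals. The first H2-DMa start has no match and is given for comparison. Its window lies inside the annotated H2-DMa gene, and which start these cells use was not tested.
H2-Aa, chr17:34287814-34287953, minus strand: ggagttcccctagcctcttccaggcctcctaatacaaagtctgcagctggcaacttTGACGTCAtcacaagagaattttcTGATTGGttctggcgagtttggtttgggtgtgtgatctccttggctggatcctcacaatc
H2-Eb1, chr17:34305737-34305876, plus strand: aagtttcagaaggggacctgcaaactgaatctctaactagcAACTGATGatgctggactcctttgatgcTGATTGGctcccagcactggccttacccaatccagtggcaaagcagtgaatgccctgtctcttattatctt
H2-DMb1, chr17:34153061-34153200, plus strand: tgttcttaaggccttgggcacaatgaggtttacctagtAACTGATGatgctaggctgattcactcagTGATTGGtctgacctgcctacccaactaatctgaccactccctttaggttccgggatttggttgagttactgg
H2-DMb2, chr17:34145119-34145258, plus strand: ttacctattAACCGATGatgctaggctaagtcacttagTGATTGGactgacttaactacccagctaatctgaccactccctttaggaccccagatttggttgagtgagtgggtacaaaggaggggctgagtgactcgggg
H2-DMa, first start, chr17:34122702-34122841, plus strand: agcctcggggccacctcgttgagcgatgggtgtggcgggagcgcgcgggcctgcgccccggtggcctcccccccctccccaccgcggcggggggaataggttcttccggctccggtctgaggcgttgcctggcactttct

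The Y box core lay 50 bases before the start in H2-Aa, 61 in H2-Eb1, 63 in H2-DMb1 and 92 in H2-DMb2, counted from its first base. The X box core lay upstream of it at 89 bases in H2-Eb1, 92 in H2-DMb1 and 121 in H2-DMb2. H2-Aa held the palindrome at 74 bases and no match to this spelling of the X box core. Of all 32851 promoter entries, 7.82% held the Y box core, 2.32% the X box core and 1.79% the palindrome on either strand. Both box cores on the strand of the gene were found in 13 entries (0.0396%), among them H2-DMb1, H2-DMb2, H2-Eb1 and the related H2-Eb2. None of these motifs matched in either H2-DMa entry or in the Cd80 entry, which says only that these letters are not in those windows. Both H2-DMb genes thus hold both cores.

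**Figure D1:**
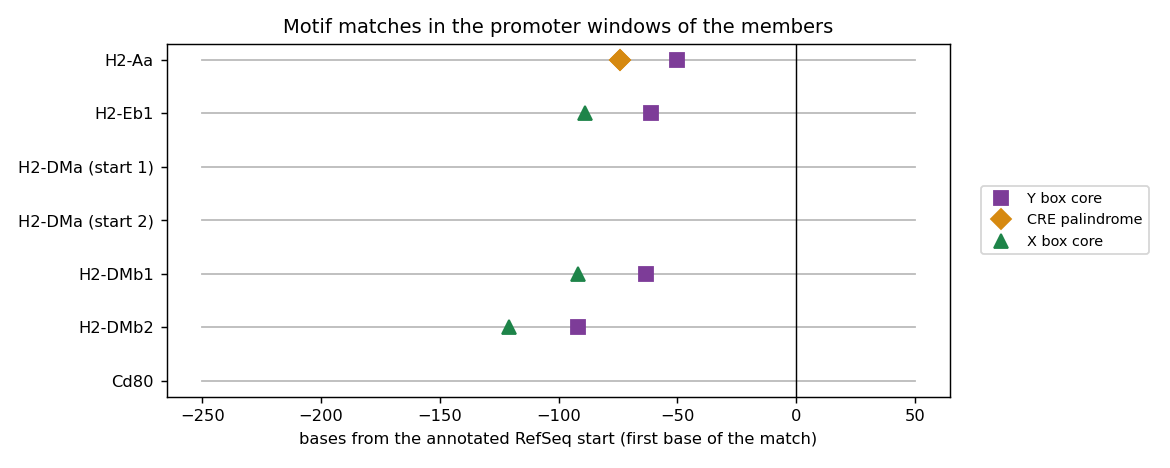
Position of motif matches in the RefSeq promoter windows of 6 genes (7 annotated starts), in bases from the start (horizontal axis, first base of the match); each grey line is 1 window of 250 bases before to 50 after. The Y box core (squares) sits 50 to 92 bases before the start in H2-Aa, H2-Eb1, H2-DMb1 and H2-DMb2, with the X box core (triangles) further upstream in 3 of them; the diamond marks the palindrome of H2-Aa.

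The targeted gene Tfam had values of 4.52, 5.08, 4.29 and 3.52 in KO pools 1 to 4, against 26.1, 35.2, 30.3 and 29.7 in WT pools 1 to 4 (limma, log2 fold change -2.55, SE 0.12, adjusted p = 1.02e-06). The unit is the normalised signal that the authors deposited, on a per-million scale of reads. The spacing of the values corresponds to 20243772 to 30263201 reads in the listed genes per KO library and 24776683 to 29161957 per WT library. A step of 3 reads corresponds to a difference in value of 0.1 to 0.152. Across the 12163 genes tested, limma called 4708 at an adjusted p under 0.05 (38.7%), 2279 higher in KO (18.7%) and 2429 lower (20.0%). With the replicate number as a block it called 5682 (46.7%). Of the 12 alveolar macrophage markers all had rows, with summed levels of 38190 to 43783 in KO and 35306 to 35669 in WT, most of it from Chil3 (24490 to 30293 in KO and 22376 to 25450 in WT). Their mean log2 level was 9.68 to 9.79 in KO and 9.65 to 9.97 in WT. Of these, Itgax, which encodes the CD11c of the gate, Car4 and Ctsk rose in KO, while Siglecf, Ear1 and Krt79 fell. Marco, Chil3, Fabp4, Pparg, Mrc1 and Lpl were not called. The share called was 50%, against 38.7% of all genes tested. With the replicate block 5 were higher and 4 lower, a share of 75%, against 46.7% of all genes. Besides CD11c, the surface markers of the gate are encoded by Ptprc and Adgre1, and both genes fell without overlap between genotypes. Ptprc averaged 859 in KO and 1148 in WT (limma, log2 fold change -0.416, adjusted p = 0.000279). Adgre1 averaged 301 in KO and 476 in WT (limma, log2 fold change -0.655, adjusted p = 0.000446). Any effect on which cells were sorted was not tested. Siglecf, a surface lectin that marks these cells, had 194 ± 20.9 in KO and 501 ± 37.6 in WT (SD, n = 4 each). Fold changes throughout are KO over WT on the log2(value + 1) scale, which understates changes of low genes.

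The surface chain genes rose in KO pools while the loading gene H2-DMa fell. H2-DMb2 fell as well when taken alone. Its sum with the similar gene H2-DMb1, which made most of that sum, did not fall (limma, log2 fold change -0.01, adjusted p = 0.954). H2-Aa, H2-Ab1 and H2-Eb1 were each about 1 log2 unit higher on average, and H2-DMa about 1 log2 unit lower. Cd86 rose and Cd80 fell by less. Of the 10 genes, 4 were called higher, 3 lower and 3 were not called, with a median log2 fold change of 0.47, against -0.01 over all genes tested. With the replicate block the counts were 5, 3 and 2. The share called was 70%, against the 38.7% of all genes, and several members are chains of the same molecules, so that they are not independent of each other.

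**Figure D2:**
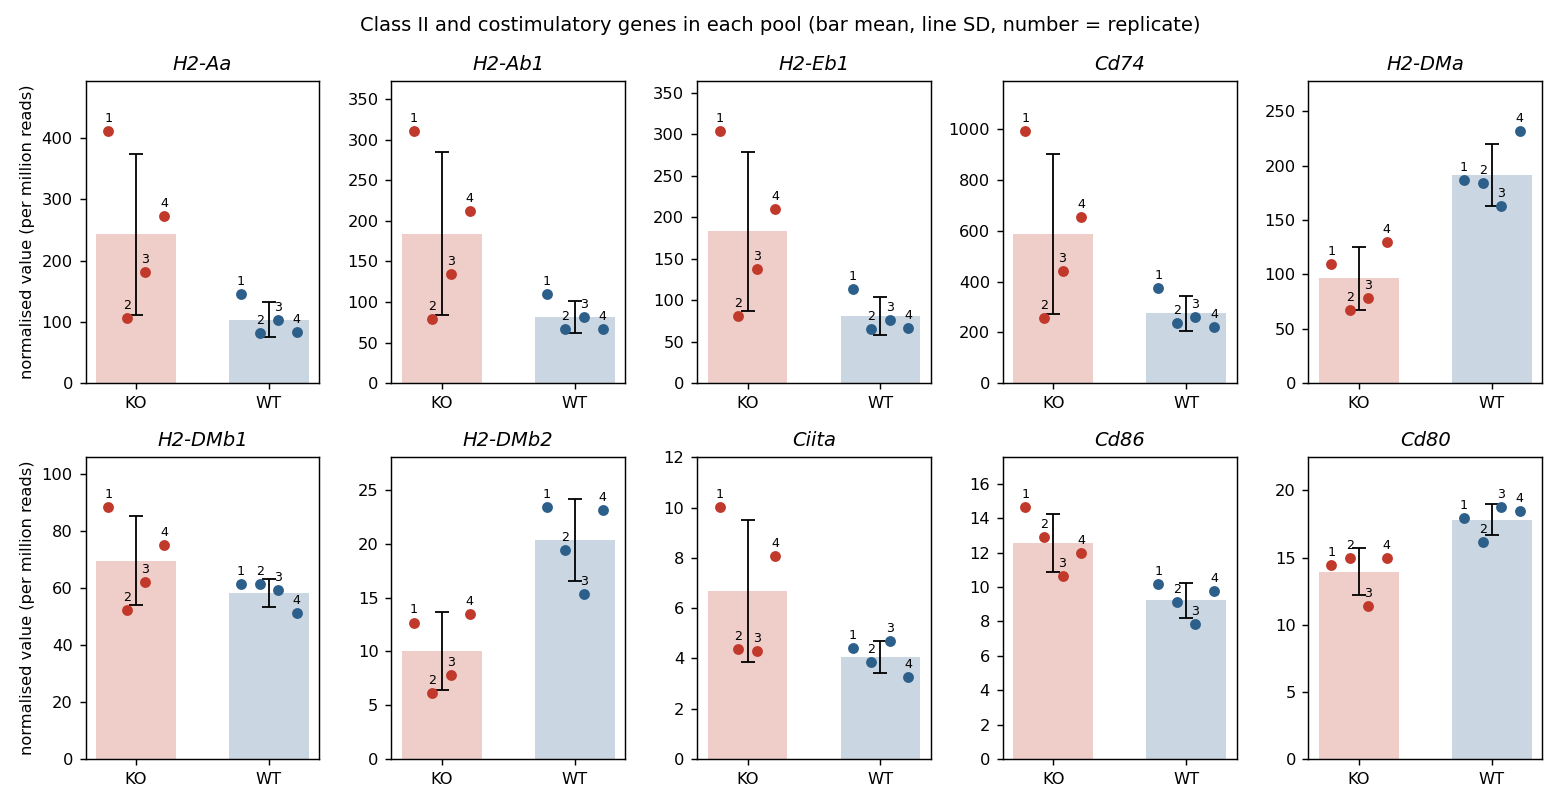
Normalised value on a per-million scale of reads (vertical axis, linear, from 0) of each of the 10 genes in the 4 KO pools (left, red) and the 4 WT pools (right, blue). Points are pools with their replicate numbers, bars are means and lines are SD. The surface chains and Cd74 spread widely between KO pools, with pool 1 highest and pool 2 lowest, while H2-DMa, H2-DMb2, Cd86 and Cd80 do not overlap between genotypes. Of all genes tested, 18.1% had all KO pools above all WT pools and 19.6% had all KO pools below.

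H2-Aa encodes the alpha chain of I-A and lies on chromosome 17 from 34282744 to 34287823, on the minus strand (GRCm38, GENCODE annotation, as for the other genes below). Its values were 411, 106, 182 and 274 in KO pools 1 to 4, against 145, 82.8, 104 and 83.7 in WT pools 1 to 4. The KO pools ranged over 3.87-fold and the WT pools over 1.75-fold, and KO pool 2 lay below WT pool 1. The log2 fold change was 1.09 (limma, SE 0.36, adjusted p = 0.0385), with p = 0.0571 by exact permutation of the pools (two-sided).

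H2-Ab1 encodes the beta chain of I-A (34257689 to 34269419, plus strand). It had 310.3, 78.8, 135 and 212.5 in KO pools 1 to 4, against 109.8, 67.4, 81.4 and 67.2 in WT pools 1 to 4. Again KO pool 1 was highest, KO pool 2 lowest among KO, and the genotypes overlapped. The log2 fold change was 1.02 (limma, SE 0.36, adjusted p = 0.0494), at the edge of the threshold. Exact permutation of the pools gave p = 0.0857.

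H2-Eb1, the beta chain gene of I-E (34305867 to 34316674, plus strand), had 303.5, 81.5, 138 and 209.5 in KO pools 1 to 4, against 114, 65.4, 76.2 and 66.3 in WT pools 1 to 4. The order of pools was the one seen for H2-Aa, and the log2 fold change was 1.05 (limma, SE 0.35, adjusted p = 0.0399). Exact permutation of the pools gave p = 0.0571. No row was tested here for H2-Ea, the alpha chain gene of I-E. H2-Eb2, a related beta chain gene, had means of 1.04 ± 0.24 in KO and 0.60 ± 0.15 in WT (SD, n = 4 each) and did not pass the filter.

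Cd74, the invariant chain gene, lies on chromosome 18 from 60803848 to 60812652 and was the most abundant member per kilobase of transcript. Its values were 991, 258, 441 and 653 in KO pools 1 to 4, against 375.5, 238, 262 and 222.5 in WT pools 1 to 4. Its mean was 586 ± 315 in KO and 274 ± 69.3 in WT (SD, n = 4 each), with KO pool 2 inside the WT range. Exact permutation of the pools gave p = 0.0857. The log2 fold change of 0.95 did not pass the threshold without the block (limma, SE 0.35, adjusted p = 0.0588) and passed it with the replicate block (adjusted p = 0.00483) or without KO replicate 2 (0.00659).

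These 4 genes kept nearly fixed proportions to each other. The log2 ratio of H2-Aa to H2-Eb1 ranged over 0.11 across the 8 libraries and that of H2-Aa to H2-Ab1 over 0.14, while H2-Aa itself ranged over several-fold. The ratio of H2-Aa to Cd74 ranged over 0.26 log2 units, at -1.272 to -1.252 in KO and -1.513 to -1.325 in WT, without overlap. The ratio of H2-Eb1 to Cd74 did not overlap between genotypes either, while that of H2-Ab1 to Cd74 did. The pool folds, KO over the WT pool of the same number, were 2.84, 1.28, 1.75 and 3.27 for H2-Aa and 2.64, 1.08, 1.69 and 2.94 for Cd74 in pools 1 to 4. Pairs 1 and 4 thus carried most of the difference, and pair 2 little of it. The numbers pair the samples by the check given with the processing, and all 4 pairs were higher in KO for each of the 4 genes. With the replicate block, limma gave adjusted p = 0.00183 for H2-Aa, 0.00379 for H2-Ab1 and 0.00177 for H2-Eb1.

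The calls of the 3 surface chains lay near the threshold. Without the block, they held when KO replicate 2 or WT replicate 1 was left out and were lost when any of the other 6 libraries was left out, at adjusted p (limma) of up to 0.0932 for H2-Aa, 0.112 for H2-Ab1 and 0.0953 for H2-Eb1. The log2 fold change of H2-Aa was 1.17 without KO replicate 3, 1.10 without WT replicate 3, 0.99 without WT replicate 2 and 0.98 without KO replicate 4, close to the 1.09 of all pools. Without KO replicate 1 the log2 fold changes were 0.78, 0.71 and 0.76, and no member was called higher. In these bulk libraries, fewer cells of a type and less RNA per cell cannot be told apart, and the same holds for more of either.

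H2-DMa encodes the alpha chain of H2-DM, and the gene (34119541 to 34139101, plus strand) was lower in each KO pool than in any WT pool. It had 109.8, 67.1, 78 and 130.2 in KO pools 1 to 4, against 187, 184, 163 and 231.5 in WT pools 1 to 4. All 4 KO pools lay below all 4 WT pools, as was the case for 19.6% of all genes tested. The log2 fold change was -1.02 (limma, SE 0.19, adjusted p = 0.00256), exact permutation of the pools gave the lowest p it can reach with 4 per genotype (0.0286), and the call held with each of the 8 libraries left out. The neighbour Brd2 runs on the opposite strand and overlaps the annotated H2-DMa gene over 3094 bases. Brd2, a bromodomain gene, had means of 217 ± 9.71 in KO and 246 ± 18.6 in WT (SD, n = 4 each; limma, log2 fold change -0.18, adjusted p = 0.0518). The strand setting of the counting is not given in the sources used here, so reads of the overlap cannot be assigned to 1 gene from these data.

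H2-DMb2, a beta chain gene (34143307 to 34151555, plus strand), had 12.7, 6.13, 7.8 and 13.5 in KO pools 1 to 4, against 23.4, 19.5, 15.3 and 23.2 in WT pools 1 to 4. The groups did not overlap, and the log2 fold change was -0.996 (limma, SE 0.23, adjusted p = 0.00753). The call held with each library left out.

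H2-DMb1, the other beta chain gene (34153072 to 34160230, plus strand), had 88.2, 52.3, 62.1 and 74.9 in KO pools 1 to 4, against 61.2, 61.2, 59.3 and 51.1 in WT pools 1 to 4. The genotypes overlapped, with KO pool 2 near the lowest WT value, and the difference did not pass the threshold (limma, log2 fold change 0.23, SE 0.14, adjusted p = 0.246). It passed without KO replicate 2 (adjusted p = 0.0499). The H2-DMb1 and H2-DMb2 transcripts were 88.8% identical over 1252 aligned bases, and 27.2% and 31.4% of their 50-base words were shared, so the authors' counting could have split reads between them. Their values summed were 101, 58.4, 69.9 and 88.4 in KO pools 1 to 4, against 84.6, 80.7, 74.6 and 74.3 in WT pools 1 to 4. The sum had a log2 fold change of -0.01 (limma, SE 0.15, adjusted p = 0.954), so the fall of H2-DMb2 taken alone is uncertain.

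Set against each other in each pool, surface and loading genes stood further apart in KO. The mean log2 level of H2-Aa, H2-Ab1 and H2-Eb1 minus that of H2-DMa, H2-DMb1 and H2-DMb2 was 2.73, 1.59, 2.10 and 2.14 in KO pools 1 to 4, against 0.90, 0.23, 0.68 and 0.14 in WT pools 1 to 4. All 4 KO pools lay above all 4 WT pools, as was the case for 18.1% of single genes tested. No test was made of this difference, because it is a score over chosen genes. The means were 2.14 ± 0.46 in KO and 0.49 ± 0.37 in WT (SD, n = 4 each), a difference of 1.65, of which 1.05 came from the surface chains and -0.60 from the loading genes. Leaving out 1 library at a time gave 1.46 to 1.83, and summing H2-DMb1 with H2-DMb2 gave 1.57.

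**Figure D3:**
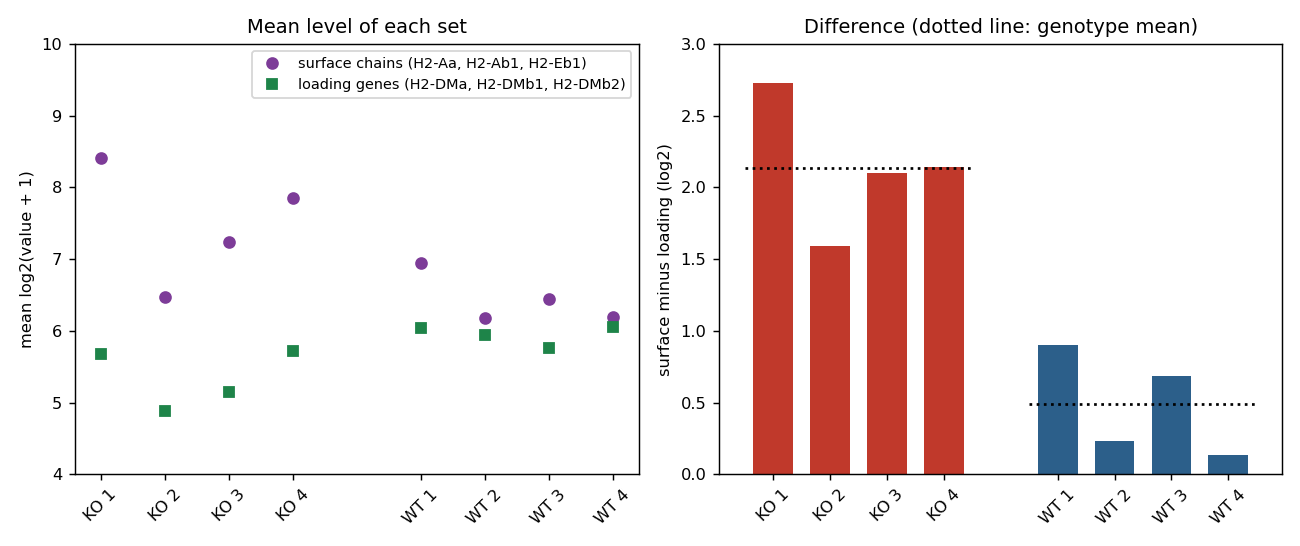
Left, mean log2(value + 1) of the surface chain genes (circles) and of the H2-DM loading genes (squares) in each pool; right, their difference per pool (bars from 0), with the genotype mean as a dotted line. The difference is 1.59 to 2.73 in the KO pools (red) and 0.14 to 0.90 in the WT pools (blue).

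Taken pair by pair, the KO minus WT difference was larger against H2-DMa and H2-DMb2 than against H2-DMb1, and it was positive in each case. H2-Aa minus H2-DMa was 0.66 to 1.90 log2 units in KO and -1.46 to -0.36 in WT, with no overlap. H2-Aa minus H2-DMb2 was 3.91 to 4.91 in KO and 1.81 to 2.69 in WT. H2-Aa minus H2-DMb1 was 2.21, 1.01, 1.54 and 1.86 in KO pools 1 to 4, against 1.23, 0.43, 0.80 and 0.70 in WT pools 1 to 4, a KO minus WT difference of 0.86. The ranges overlapped, and KO was higher in all 4 same-numbered pairs. The values against H2-DMb2 carry the limit given for that gene. The pairs of Cd74 followed the same pattern, with KO minus WT differences of 1.98 against H2-DMa, 1.95 against H2-DMb2 and 0.73 against H2-DMb1.

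The loading genes also varied with the surface chains among pools. Over both genotypes, the deviations from the genotype mean of H2-DMb1 correlated with those of the surface chains at r = 0.92 over the 8 libraries, those of H2-DMb2 at 0.79 and those of H2-DMa at 0.65. Without KO replicates 1 and 2, the pools farthest from their mean, these values were 0.67, 0.55 and 0.32. KO pools 1 and 4, high in surface chains, were also the 2 highest KO pools for H2-DMa, H2-DMb1 and H2-DMb2. In WT the H2-DMa values did not follow this order, as WT pool 4 had the highest H2-DMa and nearly the lowest surface chains. These correlations are descriptions over libraries that share a scaling and a sort.

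Per kilobase of transcript, taken from the lowest-numbered coding transcript of each gene, the mean levels in KO ran from Cd74 at 478.5 ± 257 through H2-Aa at 216 ± 116, H2-Eb1 at 156 ± 81.8 and H2-Ab1 at 152 ± 82.9 to H2-DMa at 58.1 ± 17.5 and H2-DMb1 at 49.4 ± 11.1 (SD, n = 4). In WT they ran from Cd74 at 224 ± 56.6 through H2-DMa at 115 ± 17.4, H2-Aa at 92 ± 25.8, H2-Eb1 at 68.7 ± 19.5 and H2-Ab1 at 67.2 ± 16.5 to H2-DMb1 at 41.5 ± 3.44. In these means, H2-DMa thus stood below all 3 surface chains in KO and above them in WT. Next to its neighbours in the order, H2-DMa lay within their summed SDs, except for Cd74 in WT. The order did not hold in every pool, as H2-Aa stood above H2-DMa per kilobase in WT pool 1. H2-DMb2, Cd80, Cd86 and Ciita lay between 0.67 and 14.3 per kilobase in both genotypes, and Ciita was lowest in both.

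Ciita (chromosome 16, 10480059 to 10528418, plus strand) had 10.02, 4.37, 4.29 and 8.06 in KO pools 1 to 4, against 4.40, 3.86, 4.70 and 3.25 in WT pools 1 to 4. KO pools 1 and 4 stood above every WT pool, and KO pools 2 and 3 lay within the WT range. The difference did not pass the threshold (limma, log2 fold change 0.54, SE 0.24, adjusted p = 0.104, and 0.0607 with the replicate block). Its lowest library held 84 reads, for which counting error alone is 10.9%. Dexi runs on the opposite strand over 25888 bases of the annotated gene and had 5.8 ± 0.61 in KO and 6.24 ± 0.43 in WT (SD, n = 4 each). KO pools 1 and 4, with the high Ciita values, were also the KO pools with the highest surface chains, and its deviations correlated with theirs at r = 0.88 over 8 libraries, or 0.74 without the 2 farthest.

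The costimulatory ligands went in opposite directions. Cd86 (chromosome 16, 36603869 to 36666081, minus strand) had 14.7, 12.9, 10.7 and 12 in KO pools 1 to 4, against 10.2, 9.12, 7.87 and 9.74 in WT pools 1 to 4. The groups did not overlap and Cd86 rose by 0.40 on the log2 scale (limma, SE 0.11, adjusted p = 0.0183), a call lost without KO replicate 1 (adjusted p = 0.0503). Cd80 (chromosome 16, 38455561 to 38496335, plus strand) had 14.4, 15, 11.4 and 15 in KO pools 1 to 4, against 18, 16.2, 18.8 and 18.4 in WT pools 1 to 4. It fell by 0.34 on the log2 scale without overlap (limma, SE 0.10, adjusted p = 0.0216), a call lost without WT replicate 1 (adjusted p = 0.0505) or WT replicate 3 (0.0554). Deviations of Cd86 and Cd80 correlated with those of the surface chains at r = 0.37 and 0.14 over 8 libraries, and at 0.37 and 0.57 without the 2 farthest.

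**Figure D4:**
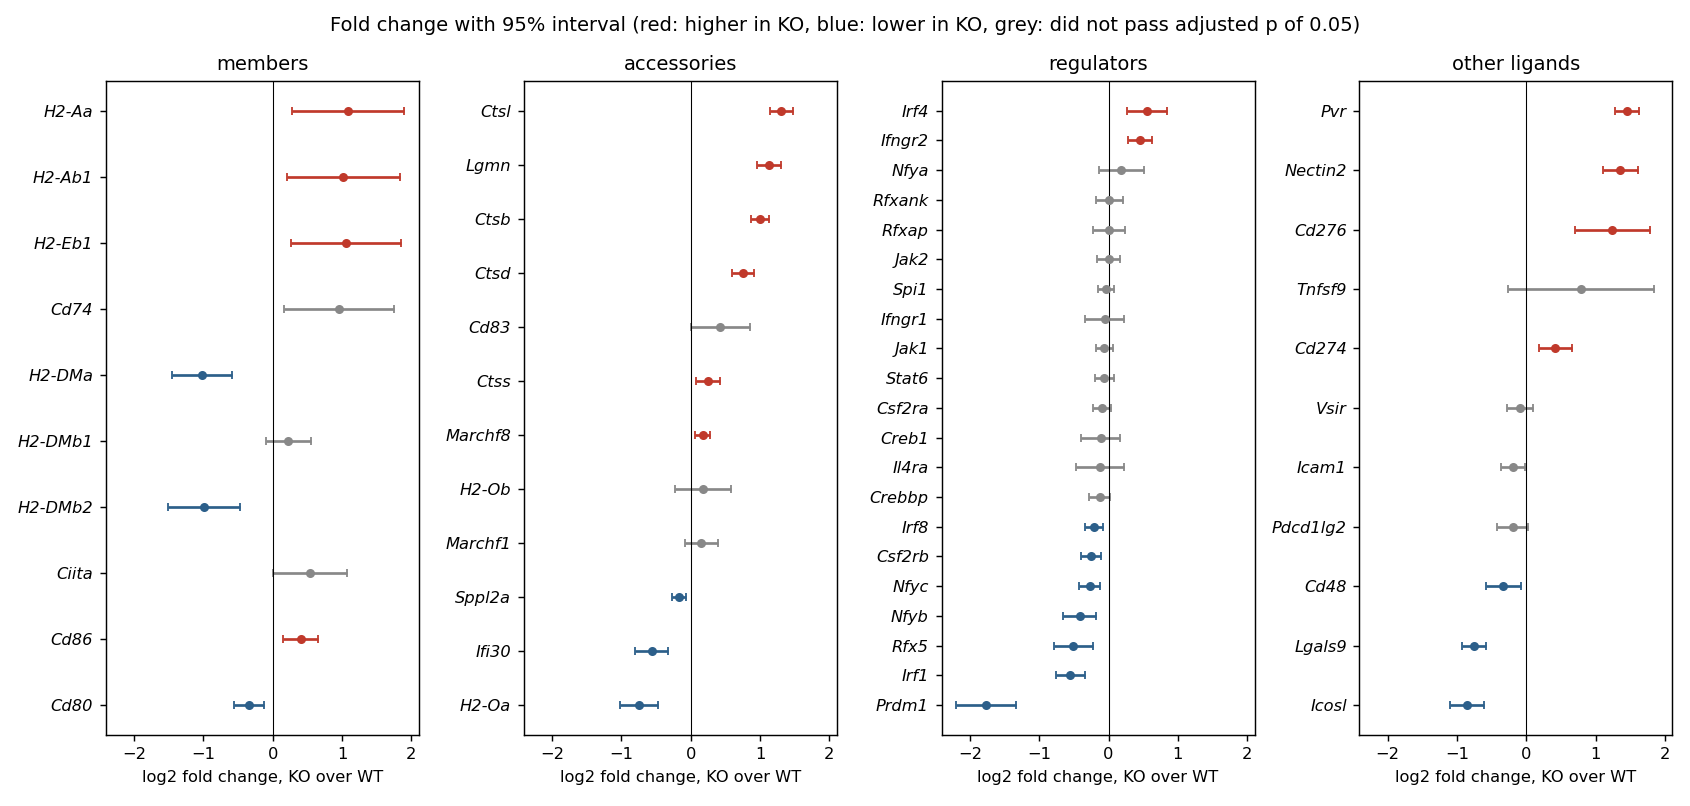
Log2 fold change of KO over WT (horizontal axis) with its 95% interval from limma for the 10 members and tested genes of 3 pathway lists, in rows by gene. Red marks genes higher in KO, blue genes lower in KO and grey genes that did not pass an adjusted p of 0.05; the intervals of the surface chains are wide, and those of Ctsl, Ctsb, Lgmn, Pvr and Nectin2 are narrow and lie well above 0.

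Among 12 tested genes that process antigen or assist loading, 6 rose, 3 fell and 3 did not pass (median log2 fold change 0.21), a share called of 75%, against 38.7% of all genes tested. With the replicate block 7 were higher and 3 lower, as Cd83 gained a call. The 4 lysosomal proteases with the smallest p all rose. Ctsl, cathepsin L, cuts the invariant chain in thymic epithelium and had 650.1, 616.5, 616 and 505 in KO pools 1 to 4, against 242, 244, 242 and 229 in WT pools 1 to 4 (limma, log2 fold change 1.31, adjusted p = 2.67e-06). The KO and WT ranges were far apart, unlike those of the surface chains. Lgmn, an asparagine-specific endopeptidase, averaged 364 ± 14.5 in KO and 166 ± 17.1 in WT, and Ctsb, cathepsin B, averaged 2798 ± 139 in KO and 1400 ± 63.7 in WT (SD, n = 4 each; limma, adjusted p = 5.9e-06 and 2.81e-06). Ctsd, cathepsin D, averaged 11232 ± 547 in KO and 6664 ± 339 in WT (SD, n = 4 each; limma, log2 fold change 0.75, adjusted p = 3.56e-05), but its sign turned under quantile normalisation (-0.23).

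A pair of genes that act beside H2-DM fell. H2-Oa, the alpha chain gene of H2-DO, which inhibits H2-DM, had 2.22, 1.89, 2.06 and 2.09 in KO pools 1 to 4, against 5.03, 4.37, 3.79 and 3.52 in WT pools 1 to 4. It did not overlap between genotypes (limma, log2 fold change -0.75, adjusted p = 0.001). Its partner H2-Ob averaged 1.67 ± 0.43 in KO and 1.37 ± 0.43 in WT and was not called. Ifi30, the thiol reductase of the endosome, averaged 275.5 ± 34.3 in KO and 407 ± 54.6 in WT (SD, n = 4 each; limma, log2 fold change -0.56, adjusted p = 0.00262). The main protease of the invariant chain in macrophages and dendritic cells, cathepsin S (Ctss), rose by 0.25 on the log2 scale (limma, adjusted p = 0.0299).

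Of 22 regulators, 2 rose, 8 fell and 12 did not pass (median log2 fold change -0.11). The share called was 45.5%, near the 38.7% of all genes tested, and with the replicate block it was 50%, against 46.7% of all genes. Rfx5, the DNA-binding subunit of the X box complex, had 12.6, 15.2, 14.5 and 10.1 in KO pools 1 to 4, against 19.6, 21, 18.1 and 16.8 in WT pools 1 to 4 (limma, log2 fold change -0.51, adjusted p = 0.00977). Within KO it was lowest in pools 1 and 4, where the surface chains were highest. Its partners Rfxap and Rfxank averaged 8.81 ± 1.21 and 12.2 ± 1.11 in KO, against 8.67 ± 0.34 and 12.1 ± 0.85 in WT (SD, n = 4 each), and limma gave adjusted p = 0.939 and 0.919.

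Of the 3 subunits of the Y box factor NF-Y, Nfyb and Nfyc fell by 0.42 and 0.27 on the log2 scale (limma, adjusted p = 0.0115 and 0.012). Nfya averaged 87.5 ± 13.7 in KO and 77.4 ± 16.5 in WT (SD, n = 4 each) and was not called without the block (limma, adjusted p = 0.357), but was called higher with it (0.0289). WT pool 4, at 102, stood above the other WT pools, at 66.8 to 71.6, and without it Nfya was called higher (limma, adjusted p = 0.0446). Creb1, which binds the palindrome, averaged 75.2 ± 12.5 in KO and 81.3 ± 11.5 in WT (SD, n = 4 each) and was not called (limma, adjusted p = 0.505).

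The largest change in the regulators was that of Prdm1, which encodes Blimp-1, a repressor of Ciita in plasma cells. Prdm1 had 13.8, 7.73, 10.9 and 12.7 in KO pools 1 to 4, against 54.1, 30.9, 40.3 and 38.4 in WT pools 1 to 4 (limma, log2 fold change -1.77, SE 0.19, adjusted p = 9.1e-05). Every KO pool lay below all WT pools. Its deviations within the genotypes ran with those of the surface chains, at r = 0.90 over 8 libraries and 0.88 without the 2 farthest, so that it was lower in KO but higher in the pools with higher surface chain values. Irf1, a factor that carries the interferon gamma signal to Ciita, fell too, averaging 28.8 ± 3.12 in KO and 42.6 ± 3.87 in WT (SD, n = 4 each; limma, adjusted p = 0.00124). Ifngr2, a chain of the interferon gamma receptor, rose by 0.46 on the log2 scale, and Irf4 by 0.55 (limma, adjusted p = 0.00124 and 0.00788).

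Of 11 other ligands that act on T cells, 4 rose, 3 fell and 4 did not pass (median log2 fold change -0.10), a share called of 63.6%, against 38.7% of all genes tested. With the replicate block 5 were higher and 4 lower, as Tnfsf9 and Icam1 gained calls. Pvr and Nectin2, ligands of CD226 and TIGIT, had 18.6 ± 1.09 and 9.68 ± 0.51 in KO, against 6.17 ± 0.36 and 3.20 ± 0.54 in WT (SD, n = 4 each; limma, log2 fold change 1.45 and 1.35, adjusted p = 1.88e-06 and 2.02e-05). Cd276, which encodes B7-H3, rose by 1.24 on the log2 scale, and Cd274, which encodes PD-L1, by 0.41 (limma, adjusted p = 0.00292 and 0.0123). Icosl, the ligand of ICOS, averaged 32.7 ± 3.29 in KO and 60.3 ± 8.28 in WT, and Lgals9, galectin-9, averaged 18.5 ± 1.77 in KO and 31.8 ± 0.68 in WT (SD, n = 4 each; limma, adjusted p = 0.000207 and 5.56e-05).

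Other cells of the lung also carry class II, so their markers were read in the same pools. By its design, the sort on CD45, F4/80 and CD11c would admit some interstitial macrophages. It is meant to remove epithelium by CD45, and most B cells, T cells and dendritic cells by F4/80 or CD11c. How far it did so was not tested. Sftpc, a marker of type 2 epithelium, had 25.3 to 61.4 in KO pools and 15.6 to 75.9 in WT pools. Of 13 markers of interstitial macrophages and monocytes, 10 had rows, and of these 7 rose, 0 fell and 3 did not pass, a share called of 70%, against 38.7% of all genes tested. With the replicate block 8 were higher and Nr4a1 was lower (limma, adjusted p = 0.000647). Their summed level was 538, 198, 318.5 and 354 in KO pools 1 to 4, against 368.5, 122, 250 and 249 in WT pools 1 to 4. Nr4a1, an early response gene, made 124, 15.7, 37.3 and 58.7 of it in KO pools 1 to 4, against 219, 23.8, 115 and 109 in WT pools 1 to 4. The 7 markers that rose did not overlap between genotypes, but they were taken as genes already called higher. All 4 KO pools lay above all 4 WT pools for 18.1% of all genes tested. In the sum, KO pool 1 was highest and KO pool 2 lowest among KO, as for the surface chains. C1qb, a complement chain gene, had 47, 11.8, 20.3 and 25.6 in KO pools 1 to 4, against 10.8, 4.33, 8.59 and 4.55 in WT pools 1 to 4 (limma, log2 fold change 1.68, adjusted p = 0.00757). Ccr2, the chemokine receptor of monocytes, averaged 55.4 ± 20.2 in KO and 26.8 ± 4.92 in WT (SD, n = 4 each; limma, adjusted p = 0.01). Their deviations correlated with those of the surface chains at r = 0.95 for C1qb and 0.91 for Ccr2 over 8 libraries, and 0.86 and 0.60 without the 2 farthest. Values for C1qa, C1qc, Cx3cr1 and Nr4a1 were 0.81 to 0.92 over 8 libraries, and 0.84, 0.75, 0.49 and 0.71 without the 2 farthest. For Apoe and Lyve1 r was 0.69 and 0.31, or 0.19 and -0.05 without the 2 farthest. Cd163 had r = 0.95 but was not called between genotypes (limma, log2 fold change 0.11, adjusted p = 0.804). Apoe, Cx3cr1, C1qa and C1qc were also called higher, and Ly6c2, Folr2 and Tmem119 were not analysed here. The part of these cells in the class II values was not tested.

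The 16 dendritic cell markers all had rows, and 15 were tested. Of these, 1 was higher (Clec9a), 1 lower (Cd24a) and 13 not called, a share called of 13.3%, against 38.7% of all genes tested. The summed level of the 16 was 2088 to 2163 in KO and 1984 to 2104 in WT. Sirpa, which macrophages also express, made 1960 to 2071 of it in KO and 1854 to 1964 in WT. The defining genes Flt3 and Zbtb46 averaged 1.99 ± 0.55 and 2.52 ± 0.29 in KO, against 2.76 ± 0.99 and 2.16 ± 0.20 in WT (SD, n = 4 each). Cd209a, a marker of monocyte-derived and conventional dendritic cells, had 12.9, 4.91, 6.28 and 16.6 in KO pools 1 to 4, against 8.62, 5.87, 6.49 and 8.88 in WT pools 1 to 4, and was not called (limma, adjusted p = 0.537). Cd209a was thus high in KO pools 1 and 4. Its deviations correlated with those of the surface chains at r = 0.81 over 8 libraries, or 0.66 without the 2 farthest. This was the highest r over 8 libraries of the 15 tested markers, followed by Ccr7 at 0.77. Without the 2 farthest, Ccr7 (0.85) and Fscn1 (0.75) had a higher r than Cd209a. Over 8 libraries, Flt3 and Zbtb46 had 0.70 and 0.31, while Clec9a and Sirpa had -0.49 and -0.75.

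Of 13 B cell markers, 4 had rows, with summed levels of 150.3 to 165 in KO and 125 to 132 in WT, nearly all of it from Cd22 (150.5 ± 6.25 in KO and 124 ± 2.22 in WT, SD, n = 4 each). The defining genes Cd79a, Cd79b and Pax5 were not analysed here, and Ms4a1 averaged 0.86 ± 0.33 in KO and 1.18 ± 0.30 in WT. Of 8 T cell markers, only Lck and Il7r had rows and both rose, a share called of 100%, against 38.7% of all genes tested. The summed levels of Lck and Il7r were 9.42 to 22.8 in KO and 0.83 to 1.90 in WT. The defining genes Cd3e, Cd3d, Cd3g, Cd4, Cd8a and Trac were not analysed here, so the share rests on 2 genes. Of 9 markers of type 2 epithelium, 8 had rows and 1 (Abca3) fell, a share called of 12.5%, against 38.7% of all genes tested. The summed levels of the 8 were 182 to 252 in KO and 180 to 289 in WT. The part of these cells in the class II values was not tested.

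**Figure D5:**
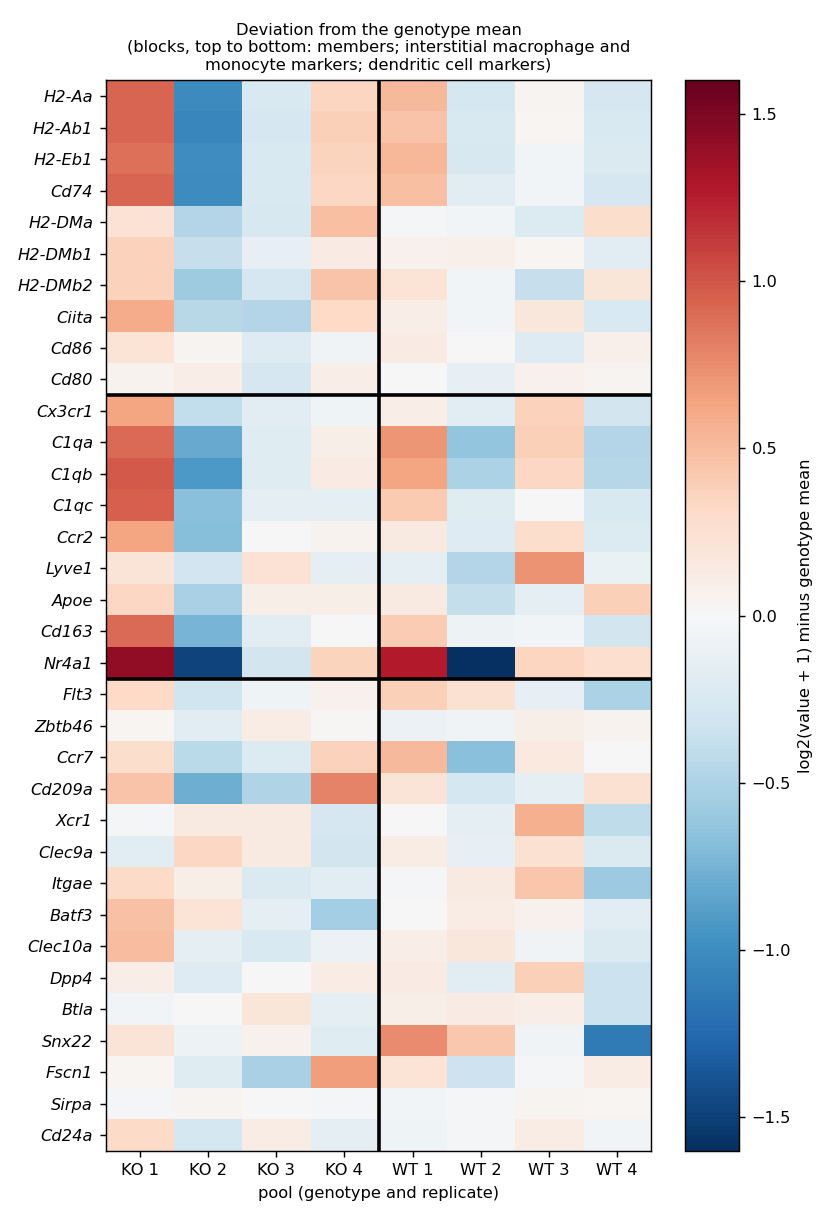
Deviation of log2(value + 1) from the genotype mean (colour, red above and blue below) for the 10 members, interstitial macrophage and monocyte markers and the 15 tested dendritic cell markers (rows) in each pool (columns, KO left of WT). The surface chains, Cd74, C1qa, C1qb, C1qc and Ccr2 are all above their genotype mean in KO pool 1 and below it in KO pool 2.

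Among 6043 genes of above-median level outside the lists, the 5 whose deviations ran most like those of the surface chains were Rpl10a, Ctdsp2, Sin3b, Nfkbia and Trim8, at r = 0.98, 0.96, 0.94, 0.94 and 0.94 over the 8 libraries. Without the 2 farthest pools r was 0.95, 0.97, 0.87, 0.91 and 0.79, and 25 genes had r above 0.9 over all 8. Rpl10a, a ribosomal protein gene, had 403, 352, 370.5 and 389 in KO pools 1 to 4, against 274, 254, 260.5 and 261 in WT pools 1 to 4, so that its swing between pools was far smaller than that of H2-Aa. Nfkbia, the inhibitor of NF-kappaB and itself its target, had 119.6, 77.8, 96.3 and 114.1 in KO pools 1 to 4, against 139, 101, 109 and 114 in WT pools 1 to 4, and was not called between genotypes (limma, adjusted p = 0.308).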

How the data were processed

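Polyadenylated RNA of 8 pools (4 KO, 4 WT) was sequenced from directional libraries, per the labels' protocols. Tools named in the submitters' processing notes are RSEM 1.3.1, cutadapt 1.7.1, CASAVA 1.8.2 and limma, with build GRCm38. For aligner, annotation and strand setting, nothing is stated (not given in the sources used here). As the authors deposited it, the table holds a normalised signal per gene and library. Its spacing was that of whole reads plus 0.5 on a per-million scale (100% of values at a tolerance of 0.01), and these reads served only for depth, voom weights and counting error, which covers sampling of reads only.

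Genes reaching a value of 1 in 4 or more libraries were tested (204 rows left out), as log2(value + 1) with limma 3.58.1 in R 4.3.3 (trended moderated variance, two-sided, Benjamini-Hochberg over 12163 genes, adjusted p under 0.05), and single members also by exact permutation. The steps were tested on simulated data. The members and lists were chosen with earlier results of these data known. Named genes were the members, of each list up to 6 genes by smallest p with the factors that bind class II promoters, and the 5 genes most like the surface chains. Ctss, H2-Ob, H2-Eb2, Brd2, Dexi, Tfam and the marker genes lie outside that rule, named with their values known. Some list genes count in the totals and are not reported here by name. Sequences came from RefSeq (GRCm38.p6), gene positions from GENCODE on GRCm38, and alignments used Biopython 1.88 in Python 3.11.15.

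KO and WT share replicate numbers. Libraries of the same number deviated together from their genotype means (r = 0.29 to 0.43), other KO and WT pairs did not (-0.37 to 0.09), and each of the 8 libraries was closest to its own number. What a number stands for is not in the labels, so this pairing is taken from the data, and a replicate block was fitted as an alternative. The other alternatives were pseudocounts of 0.25 and 5, no filter, a minimum of 8, quantile normalisation, median centring, no variance trend, voom weights, library quality weights (added after seeing the data), an adjusted p of 0.01, leaving out each library or both of replicate 4, and summing H2-DMb1 with H2-DMb2.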

Additional observations from a re-analysis of the deposited data

Results flagged for a closer look

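In 5 of 70 groups of 4 pools examined, 1 pool stood far from the other 3, where chance flags about 1 in 20 groups. Cd80 was 11.4 in KO replicate 3, against 14.4 to 15 in the other KO pools. The other 4 values lay in WT replicate 4. Ctsl was 229 there, against 242 to 244 in the other WT pools. Lgmn was 141, against 171 to 178, and Ctsd was 6157, against 6794 to 6858. Nfya was 102, against 66.8 to 71.6. The causes were not tested.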

How the results depend on the processing

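The number of members called higher, 4, moved most: it was 1 without a variance trend, 0 at an adjusted p of 0.01, 1 without both libraries of replicate 4, and 0 to 6 when each library was left out. It was 0 without KO replicate 1 and 6 without KO replicate 2. It was 1 without any of KO replicates 3 and 4 and WT replicates 2, 3 and 4. At an adjusted p of 0.01, 1513 genes were called higher, 1543 lower and 4 regulators lower. With a minimum value of 8, 1 regulator was called higher. With the replicate block, 2730 genes were called higher and 2952 lower, 5 members were called higher, and Cd74 and Nfya gained a call (limma, adjusted p = 0.00483 and 0.0289), while no other call of the 34 genes followed changed. H2-Aa, H2-Ab1 and H2-Eb1 lost theirs without a variance trend (adjusted p = 0.0549, 0.0683 and 0.0568), and H2-Ab1 also with a pseudocount of 5 (0.0503) and with voom weights (0.0549). The fold change of Ctsd turned to -0.23 under quantile normalisation, and H2-DMb1 to -0.0131 when summed with H2-DMb2. Rfxap and Rfxank, never called, turned to -0.0364 and -0.0221 under library quality weights, and ranged from -0.0507 to 0.0929 and from -0.0415 to 0.0515 with 1 library left out. Of 678 recomputed fold changes of the 34 genes, 623 kept direction and call, 38 lost a call, 7 gained one and 10 turned. Causes were not tested. The lowest libraries of Ciita and H2-DMb2 held 84 and 153 reads, for a counting error of 10.9% and 8.09%.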
